A study of Mus musculus with 15 samples.

Results

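The miR-10, miR-99 and miR-100 family comprises 7 mature microRNAs (miRNAs), listed by name and found as 7 of the 1205 rows of a miRNA count table: mmu-miR-10a-5p, mmu-miR-10a-3p, mmu-miR-10b-5p, mmu-miR-10b-3p, mmu-miR-99a-5p, mmu-miR-99b-5p and mmu-miR-100-5p (the prefix for mouse is left out below). All 7 were abundant enough to be tested. The counts come from small RNA libraries of platelet-free plasma from male wild type C57BL/6J mice, 24 h after surgery. Of the 15 libraries, 6 followed a sham operation and 9 followed cecal ligation and puncture (CLP), which lets gut bacteria into the abdomen and models polymicrobial sepsis. The labels do not say that each library is a separate animal, and give no age. The p-values here thus cover only how far the libraries vary, which may be technical.

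A miRNA is cut from a hairpin precursor, and the 5p and 3p names mark the arm it comes from. It pairs with messenger RNAs mainly through its seed, bases 2 to 8, and represses them. The miR-10 genes sit inside the Hox gene clusters that pattern the body axis, whereas each miR-99 or miR-100 gene heads a cluster that also holds a let-7 and a miR-125 gene. miR-99 and miR-100 are known for repressing the kinase mTOR, and miR-10a for restraining inflammatory signalling in endothelium.

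The sequences are shown because the members differ by few bases, which bears on how reads can be told apart. They were taken from RefSeq (GRCm38.p6), where all 7 matched by name, and capitals mark the seed.
miR-10a-5p: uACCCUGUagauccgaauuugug
miR-10b-5p: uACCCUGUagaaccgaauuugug
miR-99a-5p: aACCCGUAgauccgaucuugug
miR-100-5p: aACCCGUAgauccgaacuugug
miR-99b-5p: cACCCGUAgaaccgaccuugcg
miR-10a-3p: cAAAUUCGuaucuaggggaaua
miR-10b-3p: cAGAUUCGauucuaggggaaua
The 5p members fall into 2 seed groups, ACCCUGU for miR-10a-5p and miR-10b-5p and ACCCGUA for the other three. No other miRNA of the table with a RefSeq sequence had either seed. With positions counted from 1 at the 5′ end, miR-10a-5p and miR-10b-5p differ by U12A alone, and miR-99a-5p and miR-100-5p by U16A alone. miR-99b-5p differs from miR-99a-5p at 4 positions (A1C, U11A, U16C and U21C). The seed groups are offset by 1 base: when the U at position 6 of miR-10a-5p was removed, 2 differences from miR-100-5p were left, against 14 without removal. The 3p arms of the miR-10 hairpins do not share a seed and differ by A3G, U9A and A10U.

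The hairpins of Mir10a and Mir10b are shown because both of their arms were counted, and capitals mark the 5p and then the 3p arm.
Mir10a: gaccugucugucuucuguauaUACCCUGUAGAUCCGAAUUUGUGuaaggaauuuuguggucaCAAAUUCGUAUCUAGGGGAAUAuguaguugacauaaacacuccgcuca
Mir10b: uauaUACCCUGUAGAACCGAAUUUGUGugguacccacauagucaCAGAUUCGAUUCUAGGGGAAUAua
On GRCm38 (mm10), Mir10a lies on the plus strand at chr11:96317165-96317274, 992 bases from Hoxb4 and 11043 bases from Hoxb5, and overlapped no other GENCODE M21 gene. Mir10b lies at chr2:74726070-74726137 (plus strand), in introns of Hoxd3 and Hoxd4. Mir99a lies at chr16:77598936-77599000, in an intron of its noncoding host gene Mir99ahg and of Gm11146 on the opposite strand. Mir99b lies at chr17:17830188-17830257, in an intron of Spaca6, and Mir100 at chr9:41531425-41531504, in introns of the noncoding genes 3110039I08Rik and Gm49317 and in an exon of Gm48742 on the opposite strand. The distance to the next hairpins was 94 bases (Mirlet7e) and 554 bases (Mir125a) for Mir99b, 656 (Mirlet7c-1) and 47272 (Mir125b-2) for Mir99a, and 5211 (Mirlet7a-2) and 50421 (Mir125b-1) for Mir100, all on the same strand.

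Library totals ran from 5274676 to 13576482 counts, and 426 of 1205 rows passed the abundance filter. Levels are given as CPM, counts per 1000000 of the TMM-scaled library size, or in kCPM, units of 1000 CPM. Markers of the blood and tissue sources that plasma RNA may come from were read in these libraries, and only the myeloid miR-142a-3p among the 17 marker rows was at 0 in a library. The summed level of 4 red cell markers ran from 158.6 to 457 kCPM in sham and from 82.8 to 380 in CLP. Most of this sum was miR-486a/b-5p (mean 255786 CPM in sham), which was not called (log2 -0.70, edgeR adjusted p = 0.0867). That result was not stable: miR-486a/b-5p was called lower with limma voom (-0.85, adjusted p = 0.0165). It was also called lower without CLP 5 (-1.05, edgeR adjusted p = 0.00372) and in other settings given below. Of the 4 markers miR-451a alone fell in the main edgeR fit (-1.28, edgeR adjusted p = 0.00313). The summed level of 3 platelet and myeloid markers ran from 31.8 to 42.2 kCPM in sham and from 2.20 to 10.2 in CLP. Most of this sum was miR-191-5p (mean 37342 CPM in sham and 5450 in CLP), which fell (log2 -2.78, edgeR adjusted p = 4.37e-07). miR-223-3p (0.36, edgeR adjusted p = 0.157) and miR-142a-3p (0.38, 0.611) did not fall. Of the 3 striated muscle markers 2 rose, with sums of 0.409 to 6.69 kCPM in sham and 4.97 to 40.6 in CLP. Hepatocyte (1 marker, 2.95 to 14.6 and 1.87 to 79.2), endothelial (2 markers, 2.85 to 4.84 and 1.79 to 4.66), smooth muscle (2 markers, 14.5 to 127.9 and 32.3 to 85.1) and gut and liver markers (2 markers, 19.6 to 31.6 and 12.4 to 67.7) overlapped between the groups, and 1 smooth muscle and 1 gut and liver marker rose. The part of these sources in the members' changes was not tested. In plasma, more release of a miRNA and less of all others cannot be told apart.

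The family was a large part of the plasma miRNA counts. Together, the 7 members took 26.9% ± 7.24 (SD, n = 6) of the counts in sham libraries. In CLP libraries they took 37.3% ± 5.94 (n = 9). Sham libraries ran from 16.8% to 35.0% and CLP libraries from 26.5% to 44.5%, so that 6 of 9 CLP libraries lay above every sham library. Counting error was small beside this, with 95% Wilson intervals of at most 0.0403 percentage points to either side, which cover counting error only. Nearly all of it came from the 5p arms. In sham, miR-10b-5p made up 38.5% ± 2.63 of the family's counts and miR-10a-5p 35.6% ± 3.04. In CLP their order was the opposite, at 32.2% ± 3.51 and 47.5% ± 5.001. miR-99a-5p went from 13.95% ± 1.82 of the family to 9.84% ± 1.45.

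**Figure D1:**
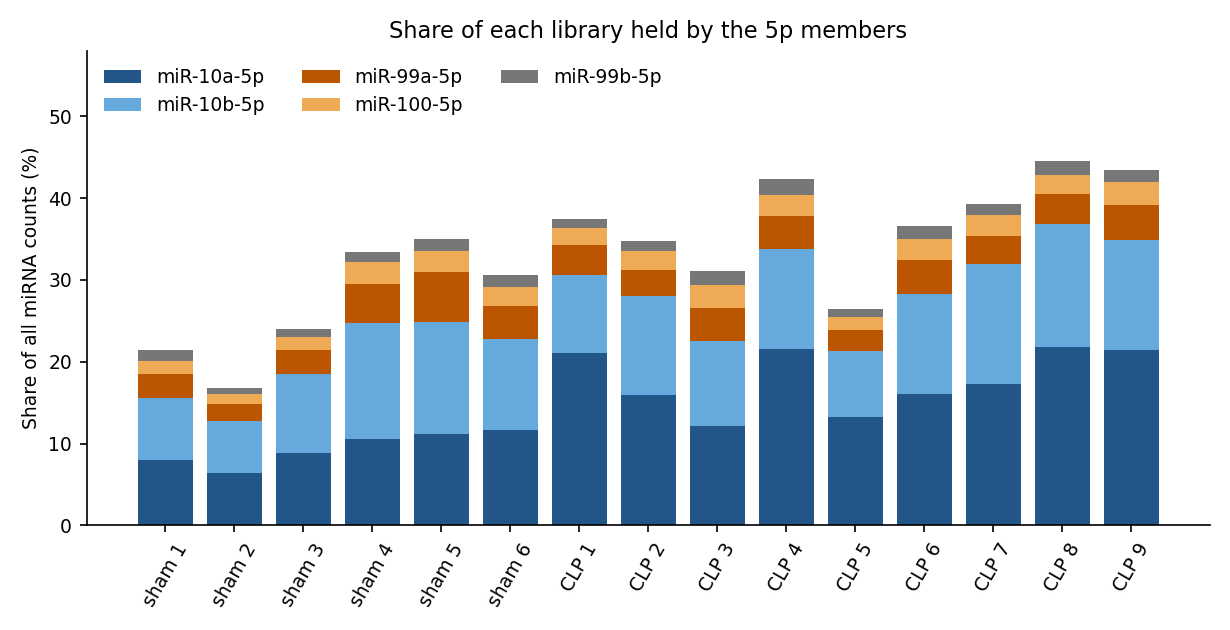
Share of all miRNA counts (vertical axis, %) held by the 5 members from the 5p arm in each of the 6 sham and 9 CLP libraries, stacked by member; the 2 members from the 3p arm are too scarce to be seen. The lowest total is that of sham 2 and the lowest CLP total that of CLP 5, and the dark blue part, miR-10a-5p, is larger in every CLP library than in any sham library.

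The share moved against that of miR-486a/b-5p, a red cell miRNA and the other dominant entry. Sham 1, 2 and 3 held 36.7%, 46.0% and 35.7% of counts as miR-486a/b-5p and had the 3 lowest family shares of all libraries (21.4%, 16.8% and 24.1%). CLP 5 came next, at 34.0% and 26.5%. All 5 members from the 5p arm were lower in sham 1, 2 and 3 than in sham 4, 5 and 6. As shares of 1 total are bound to trade off, the fold changes of single members were also fitted with miR-486a/b-5p left out of the library totals. The family's share was not recomputed with miR-486a/b-5p alone left out, so its difference between the groups holds for the full totals. The part of red cell RNA in the family's share was not tested.

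CLP was compared with sham to ask which members differ in plasma in sepsis. In edgeR's quasi-likelihood fit, with p-values adjusted by Benjamini-Hochberg over all 426 tested miRNAs, 3 of 7 members rose: miR-10a-5p and the 3p arms of both miR-10 hairpins. Of all tested miRNAs 47.2% were called, 25.4% higher and 21.8% lower. By edgeR no member fell, and none had a lower value at an unadjusted p under 0.05. DESeq2 and limma voom likewise called 0 members lower. The 3 members that rose were also those in which every CLP library lay above every sham library, as in 8.45% of all tested miRNAs. Every CLP library lay below every sham library in 11.3% of tested miRNAs and in 0 members. The median log2 fold change was 0.51 over the 7 members and 0.11 over all tested.

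miR-10a-5p was the most abundant miRNA of all in 5 of 9 CLP libraries and in none of the sham libraries, where it ranked 2 or 3. In sham its level ran from 60.1 kCPM to 120.0, with a median of 84.1. In CLP it ran from 139.5 to 255.9, with a median of 178.9, so the groups did not overlap. The lowest CLP libraries were CLP 5 and CLP 3, and the highest CLP 8 and CLP 1. The fold change was 2.20 (log2 1.14 ± 0.21, SE; edgeR adjusted p = 0.000194, higher in 9 of 9 CLP libraries). It was log2 0.67 (edgeR adjusted p = 0.000857) when libraries were scaled by totals without miR-486a/b-5p, and 0.72 (0.00761) for the sum of miR-10a-5p and miR-10b-5p.

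miR-10b-5p, which has the same seed, did not pass. It ran from 59.5 to 125.5 kCPM in sham (median 98.3) and from 85.8 to 177.7 in CLP (median 123.1). The groups overlapped, and 4 of 9 CLP libraries exceeded the highest sham library. The log2 fold change was 0.43 ± 0.21 (edgeR adjusted p = 0.101). It passed with limma voom (0.54, adjusted p = 0.0235) and without CLP 1 and CLP 5 (0.53, edgeR adjusted p = 0.0462), and its sign turned with miR-486a/b-5p out of the library totals (-0.03, edgeR adjusted p = 0.889). The value for miR-10b-5p was also smaller with scaling by library totals (0.20), with the haemolysis index as a covariate (0.23), with the GC trend described below removed (0.20) and without sham 1 (0.27), and passed under none of these.

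The difference between the miR-10 members was tested within libraries, as the log2 ratio of their counts, which does not depend on how libraries are scaled. In sham they stood near parity: the log2 ratio of miR-10a-5p to miR-10b-5p averaged -0.12 ± 0.21 (SD, n = 6), from -0.43 to 0.07. In CLP it averaged 0.56 ± 0.30 (n = 9), from 0.22 in CLP 3 to 1.14 in CLP 1. All 9 CLP libraries lay above every sham library. The difference was 0.68 (exact two-sided permutation p = 0.000599, adjusted over the 14 ratios tested 0.00140), a 1.60-fold shift toward miR-10a-5p. Both miRNAs have a GC content of 43.5%. Counts that were not whole numbers, as arises when reads matching both are divided, occurred for each in 8 of 15 libraries. The number of such reads is not known, which leaves both levels uncertain by an unknown amount.

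The 3p arms, usually the minor product of a miR-10 hairpin, were scarce but rose the most. miR-10a-3p was read 39 to 159 times in each sham library and 203 to 559 times in each CLP library. Its level ran from 5.96 to 15.3 CPM in sham (median 11.5) and from 25.0 to 51.8 in CLP (median 45.4), with no overlap. The fold change was 3.80 (log2 1.93 ± 0.25; edgeR adjusted p = 5.17e-06). miR-10b-3p ran from 53.6 to 86.0 CPM in sham (median 80.2) and from 109.9 to 235.9 in CLP (median 192.6), again with no overlap. Its fold change was 2.48 (log2 1.31 ± 0.19; edgeR adjusted p = 2.45e-05). With miR-486a/b-5p out of the library totals the log2 changes were 1.46 and 0.83, both still called (edgeR adjusted p = 4.45e-05 and 0.00149).

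**Figure D2:**
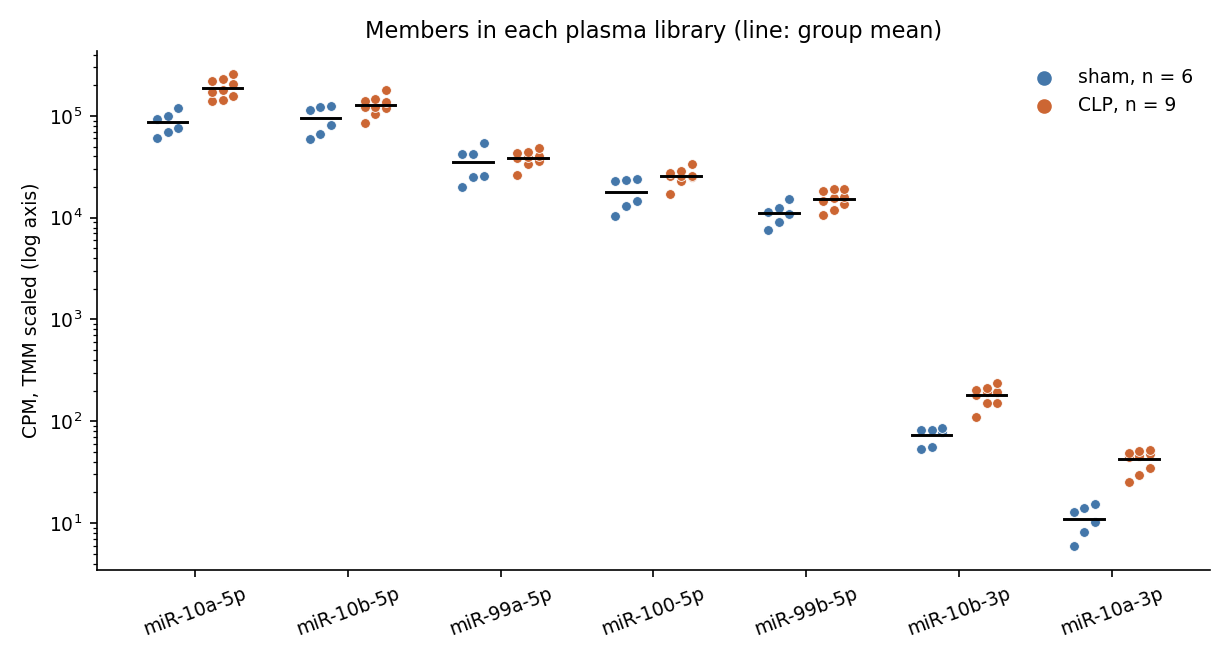
Level of each member (CPM on a log axis) in the 6 sham (blue) and 9 CLP (orange) libraries, one point per library and a line at each group mean. The orange and blue points are apart for miR-10a-5p, miR-10b-3p and miR-10a-3p and overlap for the other 4 members.

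In both miR-10 hairpins the 3p arm rose by more than the 5p arm. miR-10b-5p outnumbered miR-10b-3p by 1265 to 1 in sham and 709 to 1 in CLP (means on the log2 scale of 10.30 ± 0.22 and 9.47 ± 0.27), and every CLP library lay below every sham library. The log2 difference was -0.84 (exact permutation p = 0.0002, the smallest that the 5005 splits can give, adjusted over 14 ratios 0.000932). For the miR-10a hairpin the ratio was 7918 to 1 in sham and 4528 to 1 in CLP. The log2 difference was -0.81 (exact permutation p = 0.000999, adjusted 0.00175), with 7 of 9 CLP libraries below every sham library. The miR-99b hairpin went the other way. Its 3p arm, read 88 to 260 times per library, did not pass (log2 -0.16 ± 0.21, edgeR adjusted p = 0.556) but fell with miR-486a/b-5p out of the library totals (-0.61, 0.0136). The log2 ratio of 5p to 3p went from 9.30 ± 0.26 to 9.90 ± 0.40, a difference of 0.60 (exact permutation p = 0.00400, adjusted 0.00559). The 3p arms of miR-10a and miR-10b have a GC content of 36.4% and 40.9%, against 43.5% for their 5p arms, whereas both miR-99b arms have 63.6%. With the GC trend described below removed, the log2 fold changes of the 3p and 5p arms were 1.39 and 0.91 for miR-10a. They were 0.99 and 0.20 for miR-10b, and 0.45 and 1.05 for miR-99b. The arm ratios themselves were not tested with that trend removed.

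None of the 3 members with the ACCCGUA seed passed. miR-99a-5p, the most abundant of them, ran from 19.9 to 54.6 kCPM in sham (median 33.7) and from 26.3 to 47.9 in CLP (median 39.5). All 9 CLP libraries lay within the sham range, and the log2 fold change was 0.15 ± 0.22 (edgeR adjusted p = 0.589, 95% interval -0.31 to 0.61). Its sign turned without sham 2, with the haemolysis index as a covariate, with scaling by library totals and with totals less miR-486a/b-5p, and it passed under none of these.

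miR-100-5p ran from 10.4 to 23.8 kCPM in sham (median 18.9) and from 17.0 to 33.7 in CLP (median 25.7), and 7 of 9 CLP libraries exceeded the highest sham library. Its log2 fold change of 0.51 ± 0.21 missed the threshold (edgeR adjusted p = 0.0562). miR-99b-5p ran from 7.49 to 15.4 kCPM in sham (median 11.2) and from 10.6 to 19.1 in CLP (median 15.7). Of the CLP libraries, 5 of 9 CLP libraries exceeded the highest sham library, and its log2 fold change was 0.47 ± 0.19 (edgeR adjusted p = 0.0562). CLP 5 was the lowest CLP library for all 5 members from the 5p arm. Without it both passed, miR-100-5p at 0.50 (edgeR adjusted p = 0.0478) and miR-99b-5p at 0.45 (0.0492), although neither value grew. Each also passed on leaving out 1 sham library, miR-100-5p without sham 5 (0.62, edgeR adjusted p = 0.0323) and miR-99b-5p without sham 6 (0.49, 0.0439). With miR-486a/b-5p out of the totals neither did, at 0.06 (edgeR adjusted p = 0.756) and -0.00397 (0.987), where the sign of miR-99b-5p turned.

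Within this seed group the balance of the near-identical pair shifted. The log2 ratio of miR-99a-5p to miR-100-5p averaged 0.93 ± 0.14 (SD, n = 6) in sham libraries and 0.60 ± 0.12 (n = 9) in CLP libraries. It ran from 0.80 to 1.20 in sham and from 0.40 to 0.79 in CLP, and so did not overlap. The difference was -0.34 (exact permutation p = 0.0002, the smallest possible, adjusted over 14 ratios 0.000932). Their GC content is the same, and counts that were not whole occurred in 7 libraries for miR-99a-5p and 4 for miR-100-5p. The ratio of miR-99b-5p to miR-100-5p did not pass (difference -0.09, exact permutation p = 0.425, adjusted 0.457). Nor did that to miR-99a-5p (0.25, exact permutation p = 0.0741, adjusted 0.0865), which passed without sham 1 (0.32, adjusted 0.0299) or without CLP 1 (0.30, 0.0186) and was 0.15 without sham 5. Against miR-99b-5p, miR-10a-5p gained 0.67 on the log2 scale (exact permutation p = 0.00260, adjusted 0.00404), from 2.95 ± 0.14 to 3.62 ± 0.37, and 8 of 9 CLP libraries exceeded the highest sham library. The GC content is 63.6% for miR-99b-5p and 43.5% for miR-10a-5p. With the GC trend described below removed, their log2 fold changes were 1.05 and 0.91, so this gain was not seen there. The ratio itself was not tested with that trend removed. All 5 miRNAs from the 5p arm are 22 or 23 bases long, so levels compare per length, but adapter ligation can favour one end sequence over another.

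**Figure D3:**
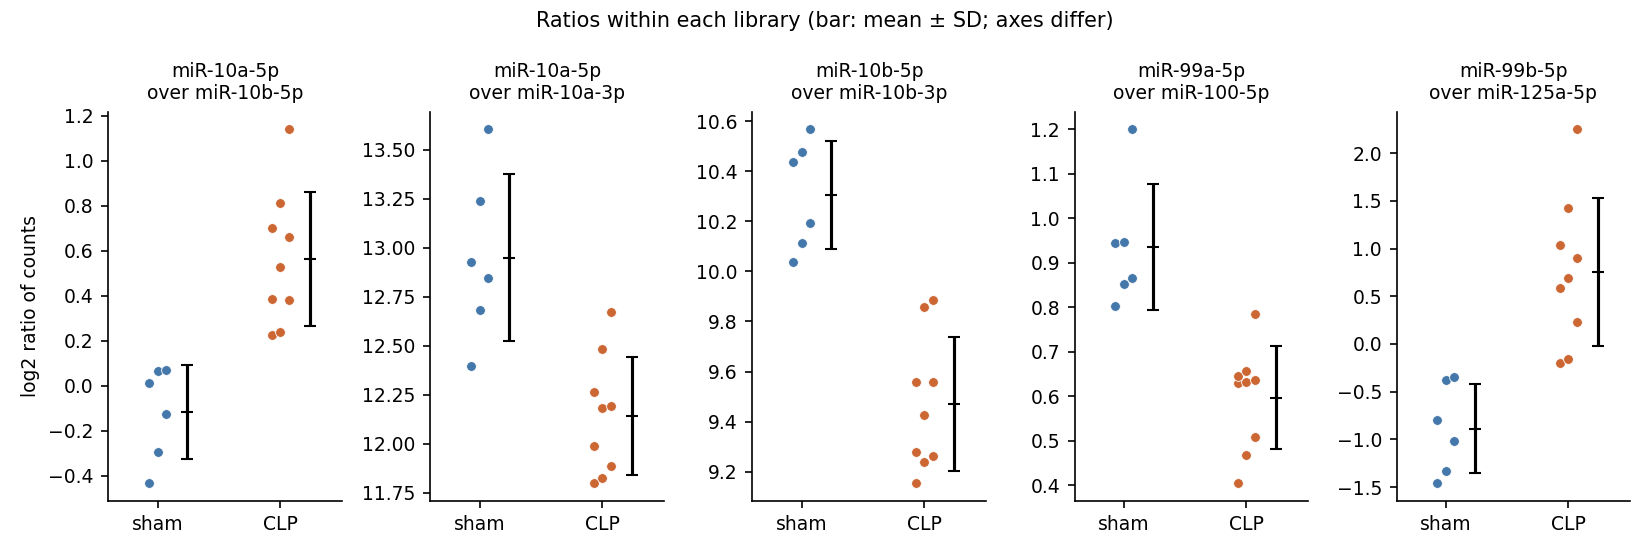
Log2 ratio of counts within each library for 5 pairs, with 1 point per library (6 sham in blue, 9 CLP in orange) and bars at the mean ± SD; the vertical axes differ. The groups do not overlap in 4 of the 5 panels and overlap by 2 CLP libraries for miR-10a-5p over miR-10a-3p.

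The miRNAs made from the same clusters as the miR-99 and miR-100 members went in both directions. Of 9 listed cluster partners 8 were tested, of which 2 rose and 2 fell by edgeR. Of all tested miRNAs 25.4% were called higher and 21.8% lower, so these counts lie near the shares over all tested. Those that fell were miR-125a-5p (log2 -1.17 ± 0.36, edgeR adjusted p = 0.0111) and miR-125b-5p (-1.19 ± 0.35, 0.00812), which share a seed. Those that rose were let-7c-5p (1.12 ± 0.24, 0.000954) and let-7a-5p (2.52 ± 0.25, 3.64e-07), of the differentiation-linked let-7 family. Counts that were not whole numbers occurred for let-7a-5p in 15 of 15 libraries and for let-7c-5p in 13. Both levels are thus uncertain by an unknown amount. let-7e-5p (0.51 ± 0.30, edgeR adjusted p = 0.162), miR-125a-3p (-0.13 ± 0.30, 0.748), miR-125b-1-3p (-0.42 ± 0.24, 0.145) and miR-125b-2-3p (-0.01 ± 0.22, 0.960) did not pass, and let-7e-3p, with 73 counts in all, was not tested. The call of let-7c-5p was lost with miR-486a/b-5p out of the library totals (0.61, edgeR adjusted p = 0.104) and that of miR-125a-5p with the haemolysis index as a covariate (-1.02, 0.0740). Lower calls were gained by miR-125b-1-3p with scaling by library totals (-0.65, edgeR adjusted p = 0.0205) and with totals less miR-486a/b-5p (-0.86, 0.00347), and by miR-125b-2-3p with the latter (-0.45, 0.0392).

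The cluster of Mir99b, Mirlet7e and Mir125a was compared first. miR-99b-5p and miR-125a-5p each have 1 entry in the RefSeq sequences used here, which does not show that no other locus makes them. let-7a-5p also has 1 entry there, at Mirlet7a-1, although Mirlet7a-2 lies in the cluster of Mir100. miR-99b-5p was the scarcer in all 6 sham libraries, with a log2 ratio to miR-125a-5p of -0.89 ± 0.47 (SD, n = 6), and the more abundant in 7 of 9 CLP libraries, at 0.75 ± 0.78 (n = 9). The difference was 1.64, or 3.12-fold (exact permutation p = 0.000599, adjusted over 14 ratios 0.00140), and no CLP library overlapped with sham. CLP 5 and CLP 7, at -0.20 and -0.16, lay closest to sham, and CLP 1, at 2.25, lay farthest. The ratio of miR-99b-5p to let-7e-5p, the middle hairpin of the cluster, was 9.43 ± 0.50 and 9.55 ± 0.80 (difference 0.12, exact permutation p = 0.753, adjusted 0.753).

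The same direction was found against miR-125b-5p, which both of the other clusters encode. The log2 ratio rose by 1.37 for miR-99a-5p (exact permutation p = 0.000999, adjusted 0.00175) and by 1.71 for miR-100-5p (p = 0.000400, adjusted 0.00140), and in each 9 of 9 CLP libraries exceeded the highest sham library. Against let-7a-5p, which is also made at another locus, miR-100-5p lost 1.98 on the log2 scale (exact permutation p = 0.0002, the smallest possible, adjusted 0.000932), from 6.55 ± 0.98 to 4.57 ± 0.50. miR-99a-5p against let-7c-5p, which also has a locus on chromosome 15, missed the threshold (-0.86, exact permutation p = 0.0402, adjusted 0.0511). It passed without sham 2 (-1.01, adjusted exact permutation p = 0.0299), without sham 3 (-1.05, 0.0197) and without CLP 1 (-0.93, 0.0427). Of the 14 ratios 10 passed, 6 higher and 4 lower in CLP. Ratios of other miRNA pairs were not tested, so no share over all pairs stands beside this count. Of all tested miRNAs 47.2% were called on their own, and several of the ratios share a miRNA. The count is thus not a result about the family.

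**Figure D4:**
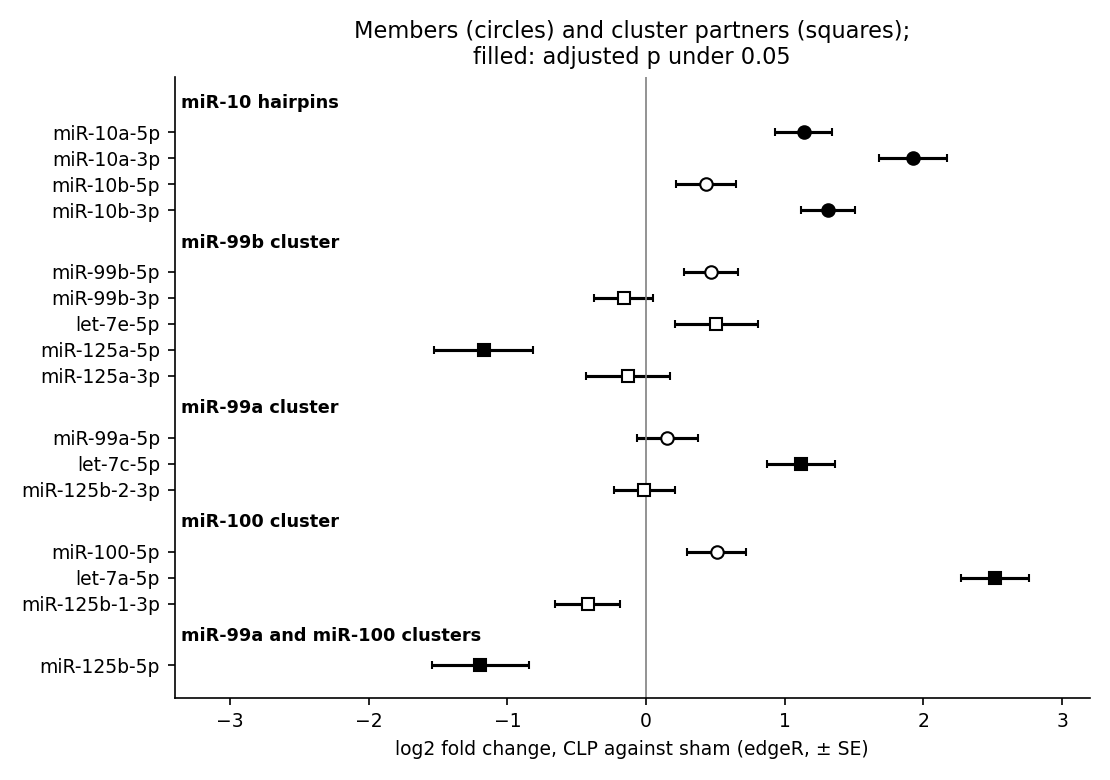
Log2 fold change of CLP against sham (edgeR, ± SE) for the 7 members (circles) and for other miRNAs of their hairpins and clusters (squares), filled where the adjusted p is under 0.05. All 7 members lie to the right of 0, from 0.15 to 1.93, while miR-125a-5p and miR-125b-5p lie to the left at -1.17 and -1.19.

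Members varied less between CLP libraries than most miRNAs did. The SD of log2 CPM over the 9 CLP libraries was 0.25 to 0.37 for the 7 members, against a median of 0.59 over all tested, and between 5.16% and 18.1% of tested miRNAs varied less. Over the 6 sham libraries it was 0.30 to 0.56, against a median of 0.50. The comparison was not matched for abundance: miR-99b-5p, the scarcest member from the 5p arm, had at least 58423 counts in every library. The part of abundance in these SDs was not tested. The miRNA outside the family that kept closest to a member was found as the one with the smallest SD of the difference in log2 CPM over the 15 libraries. For miR-10a-5p this was miR-152-3p (SD 0.28; log2 fold change 1.12), for miR-10a-3p miR-28a-3p (0.28; 2.06) and for miR-10b-3p miR-335-5p (0.27; 1.06). For miR-10b-5p it was miR-27b-3p (0.22; 0.35), and for miR-99b-5p miR-24-3p (0.24; 0.84). For miR-100-5p it was miR-676-5p (0.22; 0.57). miR-99a-5p kept closest to miR-125b-2-3p (0.22; -0.01), made from the same cluster. These are descriptions of 15 libraries that share 1 contrast.

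GC content moved with the groups. In each library the deviation of log2 CPM from the mean of all libraries was fitted against the GC content of the mature sequence, known for 373 tested miRNAs (87.6%). The slope per 10 percentage points of GC was 0.12 to 0.34 in the 6 sham libraries and -0.49 to 0.11 in the 9 CLP libraries, positive in CLP 3 alone. With this trend removed the log2 changes were 0.91 for miR-10a-5p, 1.39 for miR-10a-3p and 0.99 for miR-10b-3p, all still called (edgeR adjusted p = 0.000659, 0.000102 and 0.000329). That of miR-99b-5p, the member richest in GC at 63.6%, went from 0.47 to 1.05 and passed (edgeR adjusted p = 0.000148), and that of miR-100-5p passed at 0.54 (0.0312).

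**Figure D5:**
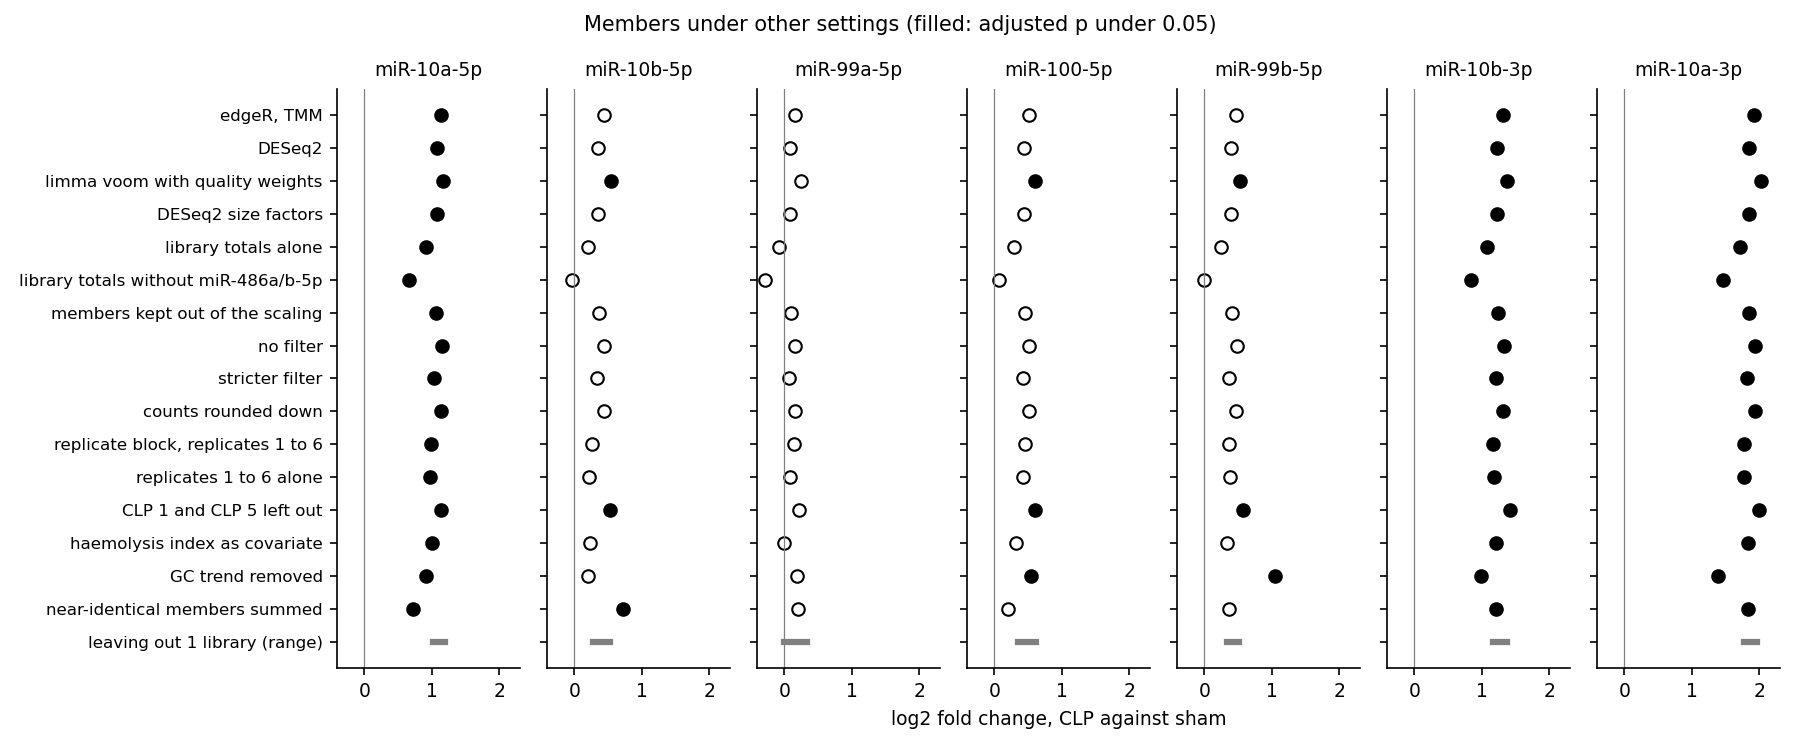
Log2 fold change of each member, CLP against sham (horizontal axis), under each setting (rows), filled where the adjusted p is under 0.05; the grey bar spans the values on leaving out 1 library. miR-10a-5p, miR-10b-3p and miR-10a-3p are filled in every row, whereas the other 4 members cross 0 or the threshold in some.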

How the data were processed

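The deposited table holds expected counts of reads per miRNA, not scaled for depth. Its name gives exceRpt, a small RNA pipeline, as the source, and mm10 is the build named in the submitters' processing notes. No aligner, mismatch setting or miRNA release is given in the sources used here. Each of the 15 columns was mapped to a library by its label. Of the members' 105 entries 28 were not whole numbers, and counts were rounded before testing.

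The test was edgeR 4.0.16 in R 4.3.3 (filterByExpr, TMM, robust quasi-likelihood F test, two-sided, Benjamini-Hochberg over 426 miRNAs, threshold 0.05). Standard errors were approximated as the log2 fold change over the square root of F. Log2 ratios of counts (pseudocount 0.5) were tested by two-sided exact permutation of the group labels (5005 splits). Hairpin positions came from GENCODE M21. The haemolysis index was the log2 ratio of miR-451a to miR-23a-3p counts. Scripts were tested on simulated data. Libraries of a group differed by a chi-square of at least 289 per degree of freedom, so none was a copy. Alternatives used DESeq2 1.42.0, limma 3.58.1, other scalings and filters, covariates and fewer libraries. The members and lists were chosen with earlier results of these data known. The miRNAs named were the members, the other arms and cluster partners listed for them, other Hox cluster miRNAs, abundant entries and, for each member, the closest in pattern.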

Additional observations from a re-analysis of the deposited data

Results flagged for a closer look

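In 58 groups of libraries (each member's level, share and ratios, by group) 4 values stood far from the rest of their group, where chance alone flags about 1 in 20. The log2 ratio of miR-99a-5p to miR-100-5p was 1.20 in sham 5, next to 0.95 in the nearest sham library, and the shift of this ratio was -0.29 without sham 5. The log2 ratio of miR-99b-5p to miR-99b-3p was 10.83 in CLP 3, next to 10.08. The log2 ratio of miR-99a-5p to miR-125b-5p was 4.78 in CLP 1, next to 3.35, and its shift was 1.14 without CLP 1. The log2 ratio of miR-10a-5p to miR-99b-5p was 2.67 in sham 1, below the next lowest value of 2.96.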

How the results depend on the processing

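The calls of miR-10a-5p, miR-10a-3p and miR-10b-3p held under all 15 alternatives and on leaving out each of the 15 libraries. Where near-identical members were summed, the call for miR-10a-5p is that of its sum with miR-10b-5p. The other results were less stable, and where a value moved the cause was not tested unless the construction of the alternative shows it. With limma voom the log2 changes that passed were 0.54 for miR-10b-5p, 0.53 for miR-99b-5p and 0.60 for miR-100-5p, so that 6 members were called, and miR-125b-2-3p turned to 0.0929. Without CLP 1 and CLP 5 they were 0.53, 0.57 and 0.60, again with 6 members called, while miR-125b-2-3p was 0.0199, miR-615-3p 0.0669 and the log2 ratio of miR-99b-5p to miR-99a-5p passed at 0.31. With the GC trend removed 5 members were called, miR-99b-5p at 1.05 and miR-100-5p at 0.54, and signs turned for miR-99b-3p (0.45), miR-125a-3p (0.19), miR-125b-2-3p (0.0324) and miR-615-3p (0.34). Summing near-identical members gave 0.72 for miR-10b-5p with miR-10a-5p. Scaling by library totals alone gave -0.0733 for miR-99a-5p and moved the median of all tested miRNAs by -0.23, with 90 called higher and 126 lower in place of 108 and 93. Totals without miR-486a/b-5p, an alternative chosen after seeing the data, moved it by -0.48 (62 higher, 152 lower) and gave -0.0290 for miR-10b-5p, -0.29 for miR-99a-5p, -0.00397 for miR-99b-5p, -0.10 for miR-27b-3p and -0.14 for miR-27a-3p. The haemolysis covariate gave -0.000963 for miR-99a-5p and 0.19 for miR-615-3p. Without a filter miR-125b-2-3p was 0.00105. miR-486a/b-5p, not called in the main fit, was called lower with limma voom (-0.85) and scaling by library totals (-0.95). The same held without a filter (-0.72), without CLP 1 and CLP 5 (-0.92) and with near-identical members summed (-0.84). It also held without sham 4 (-0.90), sham 6 (-0.90), CLP 3 (-0.86) or CLP 5 (-1.05). The call was unchanged under 8 of the 13 alternatives that gave it a value and on leaving out 11 of 15 libraries. As a percentage of the counts other than miR-486a/b-5p, miR-22-3p and the members, the family's counts differed by 36.2 points. That total is smaller, and it leaves out the members themselves and miR-22-3p, which rose (log2 1.94, edgeR adjusted p = 0.000153). The wider difference thus follows in part from how the measure is built. It is a ratio to the remaining counts and not a share, as the members are left out of the total.

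On leaving out 1 library, log2 changes ran from 0.27 to 0.53 for miR-10b-5p, from -0.00352 to 0.34 for miR-99a-5p, from 0.34 to 0.51 for miR-99b-5p, from 0.35 to 0.62 for miR-100-5p and from -0.17 to 0.14 for miR-125b-2-3p, and 3 to 5 members were called. The ratio of miR-99b-5p to miR-99a-5p differed by 0.15 to 0.32 (passing without sham 1 or CLP 1), that to let-7e-5p by -0.0207 to 0.30 (-0.0207 without sham 2, -0.00208 without CLP 6), and that of miR-99a-5p to let-7c-5p by -1.05 to -0.69 (passing without sham 2, sham 3 or CLP 1).

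Sham and CLP libraries share numbers 1 to 6, but deviations of same-numbered libraries correlated at -0.15 to -0.03, so the numbers were not taken as pairs. With a replicate block the log2 change of miR-10a-5p was 0.98 (edgeR adjusted p = 0.0110). Over these 6 pairs no ratio passed an exact sign-flip test after adjustment (smallest adjusted p = 0.0625). With 6 pairs that test can give no p below 0.03125. After adjustment over the 14 ratios a pass needs most of them at that floor, so the test decides little. The block gave differences of 0.72 (miR-10a-5p to miR-10b-5p), -0.79 (miR-10a arms), -0.91 (miR-10b arms), -0.32 (miR-99a-5p to miR-100-5p), 0.68 (miR-99b arms), 1.86 (miR-99b-5p to miR-125a-5p), 1.57 (miR-99a-5p to miR-125b-5p), -1.97 (miR-100-5p to let-7a-5p), 1.90 (miR-100-5p to miR-125b-5p) and 0.61 (miR-10a-5p to miR-99b-5p). Depth limits only the scarce entries, such as miR-10a-3p with as few as 39 counts.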

Other observations

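Other miRNAs of the Hox clusters were also looked at. Of 7 listed, 6 had a row and 4 were tested, of which 1 rose by edgeR and none fell. Of all tested miRNAs 25.4% were called higher and 21.8% lower. miR-196a-5p, which is made at the HoxB and HoxC clusters and targets Hox messages, went from 1.73 ± 1.35 CPM (SD, n = 6) to 7.05 ± 4.19 (n = 9), a log2 change of 2.05 ± 0.48 (edgeR adjusted p = 0.00195). It was scarce, at 3 to 172 counts per library. miR-196a-1-3p (1.49 ± 0.71, edgeR adjusted p = 0.0949), miR-196b-5p (0.92 ± 0.65, 0.254) and miR-615-3p (-0.16 ± 0.46, 0.801) did not pass in this fit, though miR-196a-1-3p did without CLP 1 (1.62, edgeR adjusted p = 0.0474) and miR-196b-5p with limma voom (1.69, adjusted p = 0.0464). The remaining arms of the family's hairpins were almost absent: miR-99a-3p was read 18 times in all and miR-100-3p once, against a floor of 3 counts that stands for 0.237 to 0.547 CPM in these libraries.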
